A study of Mus musculus with 22 samples.

Results

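The medulla oblongata, the lowest part of the brainstem, was set against 2 forebrain regions, the putamen and the sensorimotor cortex, in mouse poly(A) RNA-Seq. There was 1 library of each region among the 22 libraries of the series. The other 19 were lymphocytes, basophils, a B-lymphoma line and back skin. Some of the T-cell libraries carried a MUT label. Several B-cell libraries were labelled as activated with LPS, aCD40 or aBCD180, some with IL4, IL21 or a-d-dextran added. A CD4 T-cell library was labelled as activated with ConA, and the non-Tfh T cells as activated with no agent named. Each brain library was labelled with its region alone and no treatment was named; strain, sex, age, the number of animals and the borders of the dissection were not given, and the extraction was described for cultured cells. Levels are given as TPM, the authors' measure of a transcript's share of all transcripts after correction for length. A gene counted as higher or lower in medulla when it stood apart from putamen and from cortex in the same direction by 2 or more in log2(TPM + 1), and reached 10 TPM on the higher side. For genes well above 1 TPM a difference of 2 is close to 4-fold. Of 20674 protein-coding genes in the files, 14697 reached 1 TPM in at least 1 brain library and were measured. By this rule 134 genes were higher in medulla, 0.912% of those measured, and 151 were lower, 1.03%. These 285 genes are the subject here.

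The total expected count was 46.3 M in medulla, against 43.0 M in putamen and 52.5 M in cortex. At a TPM of about 10 the median gene had 664 reads in medulla, and the 95% interval that counting leaves around it ran from -7.46% to 7.90%. With a single library per region the rule is one of size and not a test, and no value carries a replicate error or a p-value. Intervals are exact Poisson intervals on reads and cover counting error only. Fewer cells of a type and less RNA per cell cannot be told apart in bulk tissue. Over all measured genes the median difference was 0.02 against putamen and 0.07 against cortex on the log2 scale. The 10 highest genes took 6.33% of all TPM in medulla, against 4.6% in putamen and 4.08% in cortex.

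The vertebrate brain keeps in adult neurons part of the transcription factor code that laid out its regions. Hox genes, which lie in 4 clusters and are numbered by their order along them, mark position in the hindbrain and spinal cord and are silent in front of them, while Emx and Dlx factors belong to the forebrain. The medulla holds breathing, cardiovascular and swallowing circuits, sensory relay nuclei, cranial motor nuclei and long fibre tracts. Much of its fast inhibition uses glycine, whereas forebrain inhibition uses GABA almost alone.

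Genes that define the regions are given as a description of the labels, since all 3 are also among the genes called lower. Lhx2, a forebrain patterning factor, was at 3.49 TPM in medulla, 43.70 TPM in putamen and 79.79 TPM in cortex. Drd1, the dopamine receptor of striatal output neurons, was at 0.50 TPM in medulla, 195.4 TPM in putamen and 11.8 TPM in cortex. Tbr1, a factor of deep cortical projection neurons, was at 0.49 TPM in medulla, 8.60 TPM in putamen and 95.2 TPM in cortex. Each gene was thus lowest in medulla, and the putamen and cortex libraries each carried some of the genes of the other region.

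**Figure D1:**
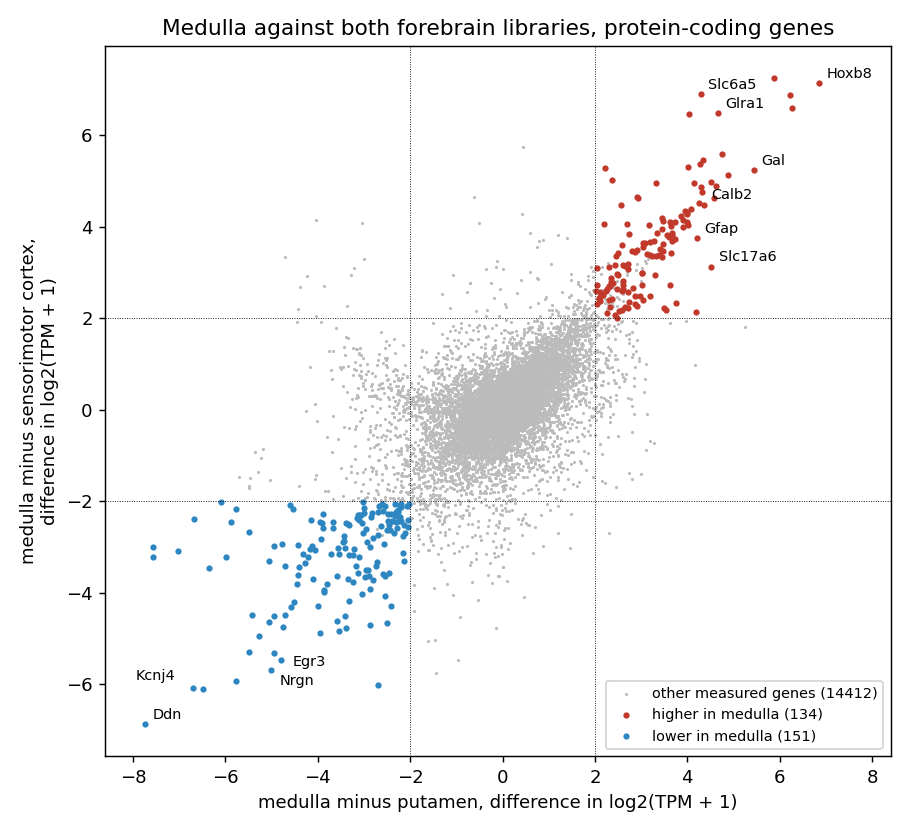
Each point is a measured protein-coding gene, with the difference in log2(TPM + 1) of medulla minus putamen on the horizontal axis and of medulla minus sensorimotor cortex on the vertical axis; dotted lines mark differences of 2. The 134 genes higher in medulla fill the upper right corner, up to Hoxb8, and the 151 lower genes fill the lower left corner, down to Ddn.

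Promoter sequences are shown for 5 of the genes past the rule: Hoxb8, with the largest difference in medulla's favour, the astrocyte gene Agt, and 3 activity-regulated genes that were lower in medulla. They are the 250 bases before and 50 after the start of transcription, from RefSeq on GRCm38.p6, the build that the mm10 files match, and each is read along its gene's strand. Every window shown holds a match to its marked motif. The 5 thus do not show how common a match is among genes past the rule. In the first pair, capitals mark the TATA box, searched as TATAAA on both strands. It was found in 7.68% of the 11709 promoters of measured genes.
Hoxb8, chr11:96281655-96281954, plus strand: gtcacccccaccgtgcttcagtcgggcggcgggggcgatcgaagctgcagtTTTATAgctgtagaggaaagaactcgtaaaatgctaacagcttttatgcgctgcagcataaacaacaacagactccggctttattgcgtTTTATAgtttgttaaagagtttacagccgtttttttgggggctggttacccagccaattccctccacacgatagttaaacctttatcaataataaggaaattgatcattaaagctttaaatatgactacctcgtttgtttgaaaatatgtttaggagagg
Agt, chr8:124569657-124569956, minus strand: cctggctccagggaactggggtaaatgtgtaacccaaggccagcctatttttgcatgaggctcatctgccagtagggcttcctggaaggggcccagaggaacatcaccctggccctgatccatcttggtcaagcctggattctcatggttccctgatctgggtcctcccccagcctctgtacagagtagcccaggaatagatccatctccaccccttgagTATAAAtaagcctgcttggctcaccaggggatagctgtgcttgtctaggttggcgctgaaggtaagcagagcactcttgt
In Agt the match lay on the gene's strand 30 bases before the start. In Hoxb8 both matches lay on the opposite strand, 199 and 110 bases before the start. The Agt window held 1 CG dinucleotide and the Hoxb8 window 13.

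In the next 3 promoters, capitals mark the core of the cyclic AMP response element, searched as TGACG on both strands; a match on the opposite strand reads CGTCA. It was found in 30.35% of the same promoters.
Egr4, chr6:85513540-85513839, minus strand: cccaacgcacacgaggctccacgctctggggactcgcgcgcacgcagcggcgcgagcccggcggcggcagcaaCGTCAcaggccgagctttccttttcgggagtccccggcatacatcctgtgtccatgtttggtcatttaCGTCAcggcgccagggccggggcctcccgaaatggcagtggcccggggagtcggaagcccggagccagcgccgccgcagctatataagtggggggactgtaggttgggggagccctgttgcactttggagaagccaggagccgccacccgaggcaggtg
Fosb, chr7:19309996-19310295, minus strand: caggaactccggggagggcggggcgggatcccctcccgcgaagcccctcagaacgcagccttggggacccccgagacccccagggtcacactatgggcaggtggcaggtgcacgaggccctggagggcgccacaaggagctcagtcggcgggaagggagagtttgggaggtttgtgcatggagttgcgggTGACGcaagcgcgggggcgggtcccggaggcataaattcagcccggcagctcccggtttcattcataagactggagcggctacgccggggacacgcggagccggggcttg
Nr4a1, chr15:101266596-101266895, plus strand: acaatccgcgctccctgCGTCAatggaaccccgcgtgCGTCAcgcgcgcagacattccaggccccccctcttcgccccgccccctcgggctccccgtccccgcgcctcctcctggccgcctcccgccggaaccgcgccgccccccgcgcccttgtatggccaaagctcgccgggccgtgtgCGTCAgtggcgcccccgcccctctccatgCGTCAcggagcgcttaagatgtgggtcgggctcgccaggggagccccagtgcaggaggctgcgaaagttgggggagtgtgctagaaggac
Egr4 held 2 matches, Fosb 1 and Nr4a1 4, at 233, 213, 69 and 40 bases before the start in Nr4a1. The Egr4, Fosb and Nr4a1 windows held 30, 25 and 35 CG dinucleotides. A match is a run of letters and not a known site. Promoters were at hand for 96 of the 134 higher and 106 of the 151 lower genes, under 80% of either, so a comparison of motif or CG content between the sets is void and is not given.

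Hox genes led the medulla. Of 39 Hox genes 24 were measured, all 24 were above both forebrain libraries, and 19 passed the rule as higher. The median difference over those measured was 3.99, against a median of 0 over all measured genes. All 24 reached 1 TPM in medulla, and only Hoxb5 did so in a forebrain library. The filter for measured genes thus fixed nearly all these directions in advance. That all 24 were above both is therefore no result, and the median is a description. Of all 14697 measured genes 5761 were above both forebrain libraries and 4698 below both, the background for such counts in every list. With FPKM in place of TPM 11 Hox genes passed. Hoxb8 had 151.96 TPM in medulla, against 0.32 TPM in putamen and 0.09 TPM in cortex, or 7744, 15 and 5 reads. That is 471-fold over putamen, with a counting interval of 285.5 to 842-fold. Hoxb5 had 155.49 TPM in medulla, against 1.66 TPM in putamen and 0.03 TPM in cortex, and Hoxa5 had 126.06 TPM, against 0.70 and 0.08 TPM. The summed level of all Hox genes was 898 TPM in medulla, against 8.76 TPM in putamen and 0.81 TPM in cortex.

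The Hox genes past the rule formed a band along the clusters. Of the 20 genes in paralog groups 2 to 8, 19 were higher in medulla; the exception was Hoxc8, with 2.04 TPM in medulla, 0.07 TPM in putamen and 0 in cortex. None of the 3 genes of group 1 and none of the 16 genes of groups 9 to 13 passed, and the highest of these, Hoxb9, had 4.67 TPM in medulla and 0.02 TPM in each forebrain library. Medulla levels inside the band ran from 2.04 to 155.49 TPM, with a median of 27.75 TPM. Hox genes of groups 10 to 13 lay between 0 and 0.10 TPM in medulla.

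The 4 clusters contributed unequally. The Hoxb cluster (GRCm38 chromosome 11, 96194316 to 96368254) had 7 of its 10 genes past the rule and a summed level of 535 TPM in medulla, against 4.05 TPM in putamen and 0.24 TPM in cortex. The Hoxa cluster (chromosome 6, 52155367 to 52260880) had 6 of 11 genes past it and 215 TPM in medulla, 2.03 TPM in putamen and 0.21 TPM in cortex. The Hoxc and Hoxd clusters, on chromosomes 15 and 2, each had 3 of 9 genes past it, with sums of 96.2 and 52.5 TPM in medulla. The last Hoxa and Hoxc genes past the rule were of groups 7 and 6, whereas the Hoxb and Hoxd clusters reached group 8.

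Hox transcripts were at low but unequal levels in the forebrain. Among the 19 genes past the rule the putamen level was between 0.211% (Hoxb8) and 2.54% (Hoxb3) of the medulla level, and each of the 19 was higher in putamen than in cortex. Hoxc4 had 51.02 TPM in medulla, 0.92 TPM in putamen and 0.08 TPM in cortex. What set this order was not tested.

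**Figure D2:**
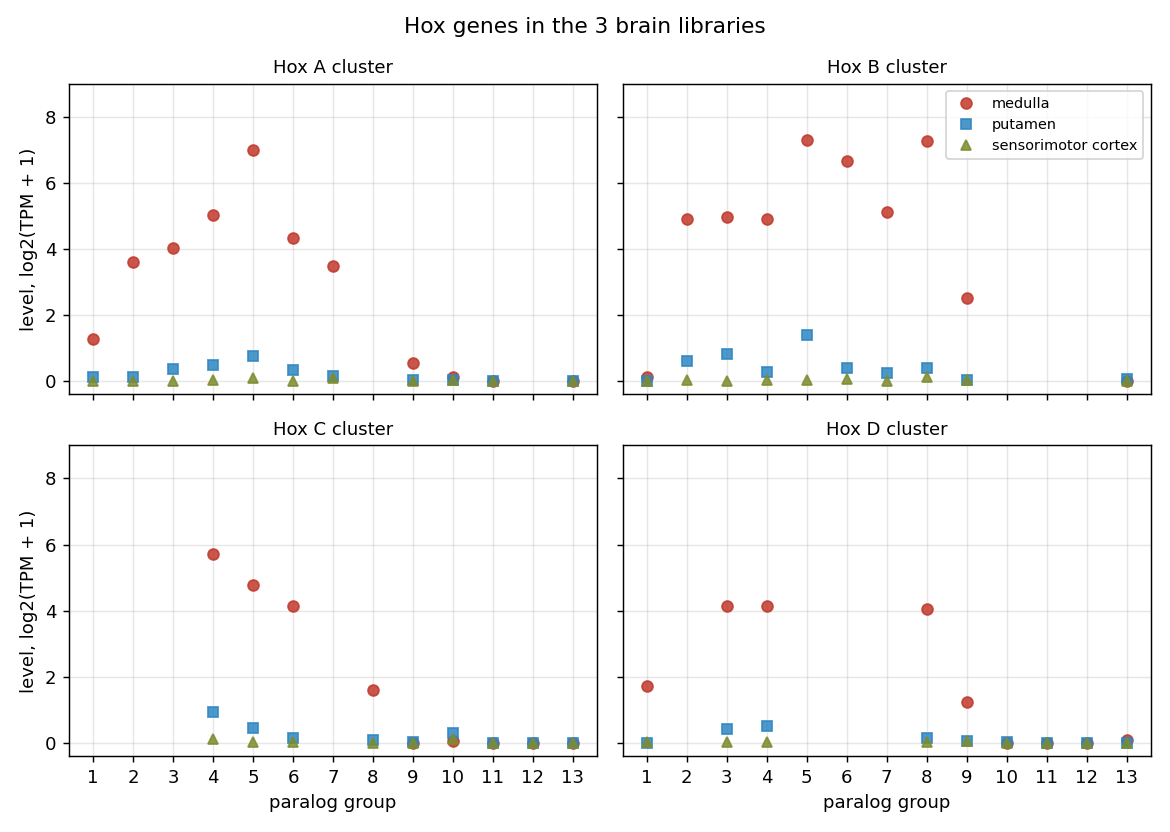
Level of each Hox gene as log2(TPM + 1) against its paralog group, 1 panel per cluster, with circles for medulla, squares for putamen and triangles for sensorimotor cortex (1 library each). Medulla stands clear of both forebrain libraries in groups 2 to 8 and meets them in groups 10 to 13.

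Other hindbrain transcription factors were mostly on the same side at lower levels. Of 40 measured factors of the list, 36 were above both forebrain libraries, 11 passed the rule as higher and 1 as lower. The median difference was 2.02. A factor could be measured through medulla alone, so these counts and this median lean towards medulla. Over all 47 factors of the list the median level was 4.5 TPM in medulla, 0.25 TPM in putamen and 0.03 TPM in cortex. With FPKM 1 passed as higher, and with no TPM minimum 21. Pax2, a factor of inhibitory interneurons of the hindbrain and spinal cord, had 26.14 TPM in medulla, 0.81 TPM in putamen and 0.54 TPM in cortex. Lbx1, a factor of dorsal interneurons, had 21.81 TPM in medulla, 0.48 TPM in putamen and 0.12 TPM in cortex. Pou4f1, Irx3, Irx1, Irx2, Prrxl1, Pax8, Lhx5 and Tlx3 passed with between 10.51 and 15.95 TPM in medulla and at most 1.14 TPM in putamen and 0.22 TPM in cortex. Zic1 was the last, at 41.13 TPM in medulla, 9.27 TPM in putamen and 3.92 TPM in cortex.

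Factors of small nuclei were present below the level that the rule asks for. Lmx1b and Fev, factors of serotonin neurons, had 7.79 and 3.21 TPM in medulla, and at most 0.25 TPM in putamen or cortex. Egr2, known for its part in forming the embryonic hindbrain, was the member on the other side, with 0.20 TPM in medulla, 16.53 TPM in putamen and 17.33 TPM in cortex. Egr2 is also an activity-regulated gene and belongs to that list below.

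Ebf3, which no list held, is a factor of the Ebf family and had 31.18 TPM in medulla, 0.69 TPM in putamen and 0.41 TPM in cortex. Mab21l2, a gene of embryonic eye and midbrain formation, had 47.81 TPM in medulla, 2 TPM in putamen and 0.24 TPM in cortex; it shares exon positions with Lrba on the opposite strand. Both were chosen after their values were seen, as were all genes named here that no list held and that are not among the 15 largest differences of a direction.

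Forebrain factors were mostly on the opposite side. All 43 factors of the list were measured. Of these 30 were below both forebrain libraries, 4 above both and 9 between or level with them. By the rule 14 passed as lower and none as higher, with a median difference of -0.96. Dlx1, a factor of forebrain inhibitory neurons, had 0.17 TPM in medulla, 29.47 TPM in putamen and 25.17 TPM in cortex. Lhx6, a factor of cortical interneurons, had 0.28 TPM in medulla, 11.08 TPM in putamen and 16.48 TPM in cortex. Dlx2, Dlx5, Dlx6, Sp9, Emx2, Lhx2, Tbr1, Bcl11b, Foxp1 and Mef2c were among the others that passed.

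Some factors of a single forebrain region missed a rule that asks for a difference from both. Emx1, of cortical projection neurons, had 0.41 TPM in medulla, 1.74 TPM in putamen and 61.18 TPM in cortex. Six3, of striatal neurons, had 0.01 TPM in medulla, 51.85 TPM in putamen and 1.8 TPM in cortex. Nr2e1, which no list held and which is a nuclear receptor of forebrain progenitors, did pass, with 0.03 TPM in medulla, 16.62 TPM in putamen and 12.28 TPM in cortex.

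Glycine transmission set the medulla apart within inhibition. Slc6a5, the neuronal glycine transporter that marks glycinergic neurons, had 130.19 TPM in medulla, 5.69 TPM in putamen and 0.10 TPM in cortex. Glra1, the adult glycine receptor subunit, had 120.07 TPM in medulla, 3.76 TPM in putamen and 0.35 TPM in cortex. This was 31.9-fold over putamen (counting interval 27.3 to 37.6) and 341-fold over cortex (213 to 586). Slc6a9, the glial glycine transporter, had 199.76 TPM in medulla, 43.38 TPM in putamen and 34.19 TPM in cortex, though its exons overlap Ccdc24 on the opposite strand. Glra1 made up 82.3% of the summed TPM of the 4 glycine receptor alpha subunit genes in medulla, against 23.2% in putamen and 3.72% in cortex.

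Genes for GABA synthesis did not follow. Gad1, a GABA-synthesising enzyme, had 155.81 TPM in medulla, 377.39 TPM in putamen and 292.48 TPM in cortex. Slc32a1, the vesicular transporter that GABA and glycine share, had 212.45 TPM in medulla, 267.60 TPM in putamen and 115.77 TPM in cortex. Of the 30 inhibitory genes 5 passed as higher and 2 as lower, and the median difference over the list was 0.04. Glrb and Gphn, the receptor's beta subunit and its anchor gephyrin, were within 0.20 on the log2 scale of the nearer forebrain library.

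GABA-A receptor subunit genes passed in both directions. Gabra4 had 17.26 TPM in medulla, 147.88 TPM in putamen and 73.06 TPM in cortex. Gabrd, the delta subunit of extrasynaptic receptors, had 6.68 TPM in medulla, 167.17 TPM in putamen and 106.79 TPM in cortex. Both passed as lower, whereas Gabrq, the theta subunit, passed as higher with 10.85 TPM in medulla, 1.08 TPM in putamen and 0.10 TPM in cortex. Gabra2 had 110.21 TPM in medulla, 94.25 TPM in putamen and 80.50 TPM in cortex and did not pass.

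Gabra6, a subunit of cerebellar granule neurons, was also past the rule, with 13.35 TPM in medulla, 0.12 TPM in putamen and 0.02 TPM in cortex. It moved with 4 other genes of the 20 on the cerebellar list. Pcp2, a Purkinje neuron gene, had 26.54 TPM in medulla, 0.15 TPM in putamen and 0.12 TPM in cortex. Cbln1 and Cbln3, cerebellins of granule neurons, had 66.89 and 11.12 TPM in medulla and at most 3.69 and 0.33 TPM in the forebrain libraries. Zic1 was the fifth. The list was not uniform: 13 of 20 genes were above both forebrain libraries and 5 below both, and Itpr1, an inositol trisphosphate receptor abundant in Purkinje neurons, was lower in medulla, with 42.27 TPM, than in putamen, with 463.78 TPM, and cortex, with 293.01 TPM. No cerebellum library was among the 22, and the part of cerebellar RNA in these values was not tested. Pcp2 also shares exon positions with Pet100 on the opposite strand.

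Excitatory transmission differed by transporter. Slc17a6, the vesicular glutamate transporter of subcortical neurons, had 167.21 TPM in medulla, 6.32 TPM in putamen and 18.23 TPM in cortex. Slc17a7, the transporter of cortical projection neurons, had 69.99 TPM in medulla, 100.89 TPM in putamen and 1270.74 TPM in cortex. Slc17a6 made up 70.5% of the sum of the pair in medulla, against 5.89% in putamen and 1.41% in cortex. Of the 31 glutamate genes Slc17a6 alone passed as higher and Grin2b alone as lower, with a median difference of -0.01.

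Receptor subunits again shifted within families. Grin2b, an NMDA receptor subunit of forebrain synapses, had 4.87 TPM in medulla, 30.94 TPM in putamen and 35.31 TPM in cortex. It made up 8.93% of the summed TPM of Grin2a to Grin2d in medulla, against 36.7% in putamen and 28.6% in cortex, while Grin2d, a subunit of brainstem and spinal cord, made up 32.2% in medulla, 4.77% in putamen and 7.47% in cortex. Among AMPA receptor subunits Gria4 made up 36.5% in medulla, against 8.04% in putamen and 14.9% in cortex. Gria2, the subunit that limits calcium entry, made up 18.9% in medulla, 44.6% in putamen and 42.4% in cortex. Gria2 and Gria4 did not themselves pass the rule.

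**Figure D3:**
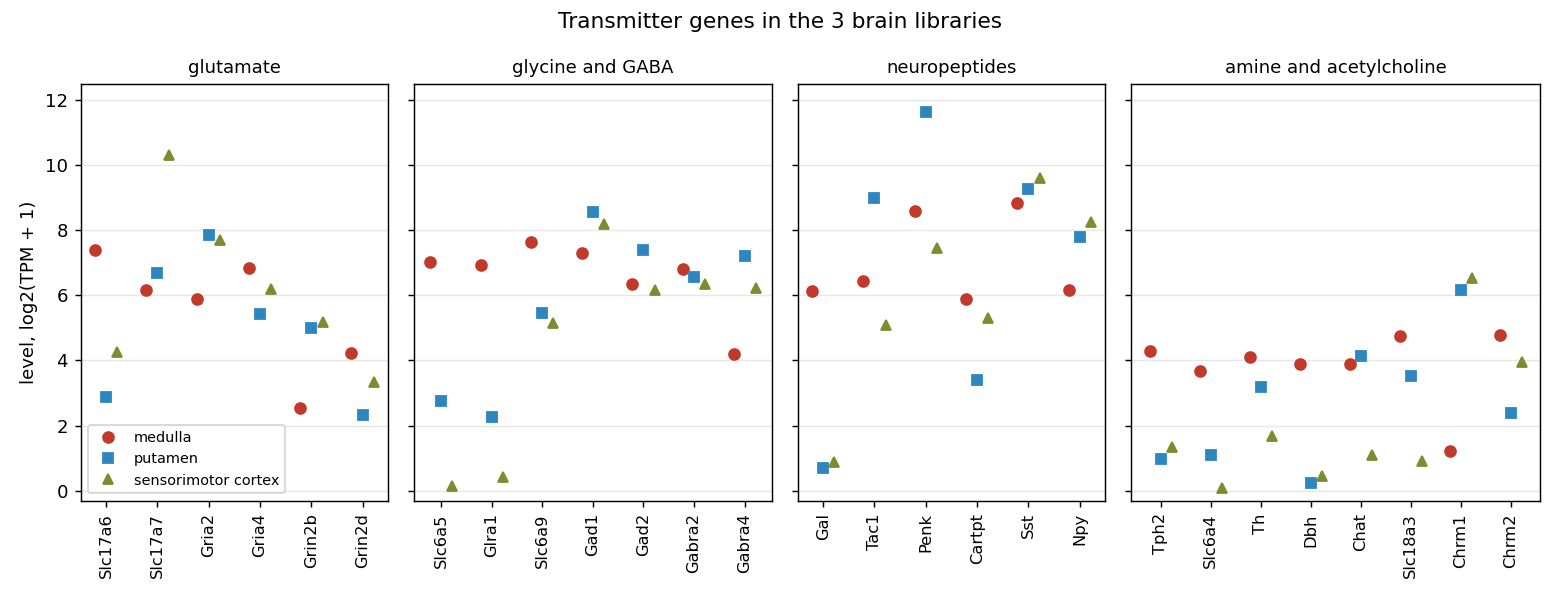
Level of transmitter genes as log2(TPM + 1), grouped by transmitter, with circles for medulla, squares for putamen and triangles for sensorimotor cortex (1 library each). Slc17a6, Slc6a5, Glra1, Gal, Tph2, Slc6a4 and Dbh stand highest in medulla, whereas Chrm1, Gabra4 and Grin2b stand lowest there.

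Genes of monoamine neurons, which have cell groups in the medulla, were higher at modest levels. Tph2, the enzyme of serotonin synthesis in neurons, had 18.44 TPM in medulla, 0.97 TPM in putamen and 1.52 TPM in cortex. Slc6a4, the serotonin transporter, had 11.84 TPM in medulla, 1.14 TPM in putamen and 0.05 TPM in cortex. Dbh, the enzyme that makes noradrenaline from dopamine, had 13.71 TPM in medulla, 0.17 TPM in putamen and 0.37 TPM in cortex. These were the 3 genes past the rule as higher among 34 measured monoamine and acetylcholine genes, of which 24 were above both forebrain libraries, with a median difference of 0.79. Th, the enzyme before dopamine, was at 16.07 TPM in medulla and 8.07 TPM in putamen and missed the rule.

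Muscarinic acetylcholine receptor genes differed in their shares. Chrm1, the main receptor of forebrain neurons, had 1.34 TPM in medulla, 71.41 TPM in putamen and 92.42 TPM in cortex. Chrm4 had 3.78 TPM in medulla, 95.07 TPM in putamen and 41.42 TPM in cortex. Both passed as lower, whereas Chrm2, at 26.35 TPM in medulla, 4.18 TPM in putamen and 14.36 TPM in cortex, did not pass. Chrm2 made up 83.7% of the summed TPM of these 3 receptors in medulla, 2.45% in putamen and 9.69% in cortex. Chrm3 and Chrm5 were not part of the sum, and the share also rises where Chrm1 and Chrm4 are low. Chat, which makes acetylcholine in motor neurons and in striatal interneurons, had 13.86 TPM in medulla, 16.76 TPM in putamen and 1.16 TPM in cortex.

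Neuropeptide genes gave 8 of 33 measured members past the rule as higher and none as lower, with a median difference of 0.62. Gal, the precursor of galanin, had 68.63 TPM in medulla, 0.61 TPM in putamen and 0.85 TPM in cortex, a 113-fold difference from putamen with a counting interval of 57.3 to 263-fold on 8 putamen reads. Npff, the precursor of neuropeptide FF, which modulates pain in the brainstem and spinal cord, had 32.56 TPM in medulla, 0.98 TPM in putamen and 0.61 TPM in cortex. Trh, the precursor of thyrotropin-releasing hormone, had 52.76 TPM in medulla, 6.02 TPM in putamen and 1.16 TPM in cortex. With TMM-scaled CPM in place of TPM 4 genes of the list passed; Nppc and Npb then had differences of 1.94 and 1.44. Calca, Calcb, Nppc, Npb and Nxph4 were the other 5, at 30.86, 11.58, 35.54, 12.44 and 81.54 TPM in medulla.

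Peptides of forebrain neurons did not form an opposite group. Penk, the enkephalin precursor, had 384.80 TPM in medulla, 3145.12 TPM in putamen and 174.71 TPM in cortex. Sst, the somatostatin precursor, had 459.47 TPM in medulla, 615.83 TPM in putamen and 773.08 TPM in cortex. The gut-brain peptide gene Gcg, active in a small group of neurons in the medulla, stayed under the TPM minimum, with 9.24 TPM in medulla, 0.16 TPM in putamen and 0.05 TPM in cortex. Outside the lists Nmu and Prlh, precursors of neuromedin U and prolactin-releasing peptide, had 12.60 and 10.07 TPM in medulla. Prlh was at 0 in both forebrain libraries, which bounds the difference at no less than 12.8-fold over putamen and 14.7-fold over cortex when 3 reads stand for each 0. Its medulla level rests on 42 reads.

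Axonal cytoskeleton and fast-firing channel genes were above both forebrain libraries in 26 of 33 cases, and 6 passed the rule as higher, with a median difference of 0.52. None of the 6 was an ion channel gene. Nefh, the heavy neurofilament, had 470.15 TPM in medulla, 34.09 TPM in putamen and 92.67 TPM in cortex, and made up 16.3% of the summed TPM of the 3 neurofilament genes in medulla, 5.29% in putamen and 8.51% in cortex. Sncg, gamma-synuclein, had 324.28 TPM in medulla, 18.78 TPM in putamen and 2.69 TPM in cortex. Prph, peripherin, an intermediate filament of motor and peripheral neurons, had 64.70 TPM in medulla, 5.58 TPM in putamen and 1.13 TPM in cortex. Vamp1 and Syt2, parts of the release machinery of fast synapses, had 1027.32 and 214.86 TPM in medulla, against at most 233.71 and 44.87 TPM in the forebrain libraries. Spp1, osteopontin, was the sixth, at 76.86 TPM in medulla, 3.83 TPM in putamen and 3.74 TPM in cortex.

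Motor neuron markers overlapped these lists. Of 15 measured, 13 were above both forebrain libraries and 4 passed, namely Prph, Calca, Calcb and Ret. Ret, the receptor for GDNF-family factors, had 30.83 TPM in medulla, 1.63 TPM in putamen and 1.31 TPM in cortex. Mnx1, a defining factor of somatic motor neurons, had 1.81 TPM in medulla and 0 in both forebrain libraries.

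Calb2 had the largest difference among the higher genes that no list held. It encodes calretinin, a calcium-binding protein, and had 269.18 TPM in medulla, 12.07 TPM in putamen and 11.11 TPM in cortex. Resp18, a gene of secretory granules, had 562.11 TPM in medulla, 70.98 TPM in putamen and 99.73 TPM in cortex. Kcnh2, a potassium channel, had 102.70 TPM in medulla, 20.68 TPM in putamen and 22.81 TPM in cortex. In all, 72 of the 134 higher genes stood in none of the 24 lists.

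Glia differed by type. Of 27 myelin and oligodendrocyte markers 25 were above both forebrain libraries, with a median difference of 1.46, yet only Gjb1, a gap junction gene of oligodendrocytes, passed the rule. Mbp, myelin basic protein, had 19733 TPM in medulla, 5552 TPM in putamen and 4302 TPM in cortex. The summed level of the list was 3.22 times that of putamen and 4.12 times that of cortex. Pdgfra and Cspg4, which mark oligodendrocyte precursors, did not share this: Pdgfra had 22.89 TPM in medulla, 23.15 TPM in putamen and 20.48 TPM in cortex.

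Of 19 astrocyte markers 15 were above both forebrain libraries and 2 below both, with a median difference of 0.62. Gfap, the astrocyte filament, had 2139 TPM in medulla, 115.4 TPM in putamen and 158.8 TPM in cortex, 18.5-fold and 13.5-fold. Agt, angiotensinogen, whose promoter is printed above, had 253.12 TPM in medulla, 11.57 TPM in putamen and 4.74 TPM in cortex. Aqp4, the astrocyte water channel, had 256.83 TPM in medulla, 50.79 TPM in putamen and 47.52 TPM in cortex. These 3 passed the rule. The 2 below both were Slc1a2 and Slc1a3, the glutamate transporters of astrocytes, with 588.51 TPM of Slc1a2 in medulla, 844.51 TPM in putamen and 1027.94 TPM in cortex.

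Further genes past the rule outside the lists, picked from the higher genes with their values in view, included these. Sparc, a matrix protein, had 1495.28 TPM in medulla, 273.91 TPM in putamen and 164.73 TPM in cortex. Serpina3n, a protease inhibitor of reactive astrocytes, had 81.42 TPM in medulla, 13.83 TPM in putamen and 12.29 TPM in cortex. A2m, alpha-2-macroglobulin, had 34.15 TPM in medulla, 1.21 TPM in putamen and 0.80 TPM in cortex. Dao, the D-amino acid oxidase, had 16.97 TPM in medulla, 0.62 TPM in putamen and 0.03 TPM in cortex.

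Lists of other cell types gave no gene past the rule, which at 0.912% and 1.03% of all measured genes is no result about lists of this size. This held for 18 microglial, 18 vascular, 18 meningeal, 15 choroid plexus and ependymal and 9 red blood cell genes measured. Microglial markers were below both forebrain libraries in 13 of 18 cases, with a median difference of -0.28, and Cx3cr1 had 25.21 TPM in medulla, 41.96 TPM in putamen and 39.48 TPM in cortex. Red blood cell genes were above both in 8 of 9 cases, with a median difference of 0.93, and had a summed level of 2730 TPM in medulla, 1182 TPM in putamen and 974 TPM in cortex. Aldh1a1, an enzyme of retinoic acid synthesis, was the only gene of 18 on the retinoid and thyroid list to pass, with 225.58 TPM in medulla, 27.12 TPM in putamen and 27.46 TPM in cortex. Of 16 perineuronal and matrix genes 7 were above both forebrain libraries and 5 below both.

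**Figure D4:**
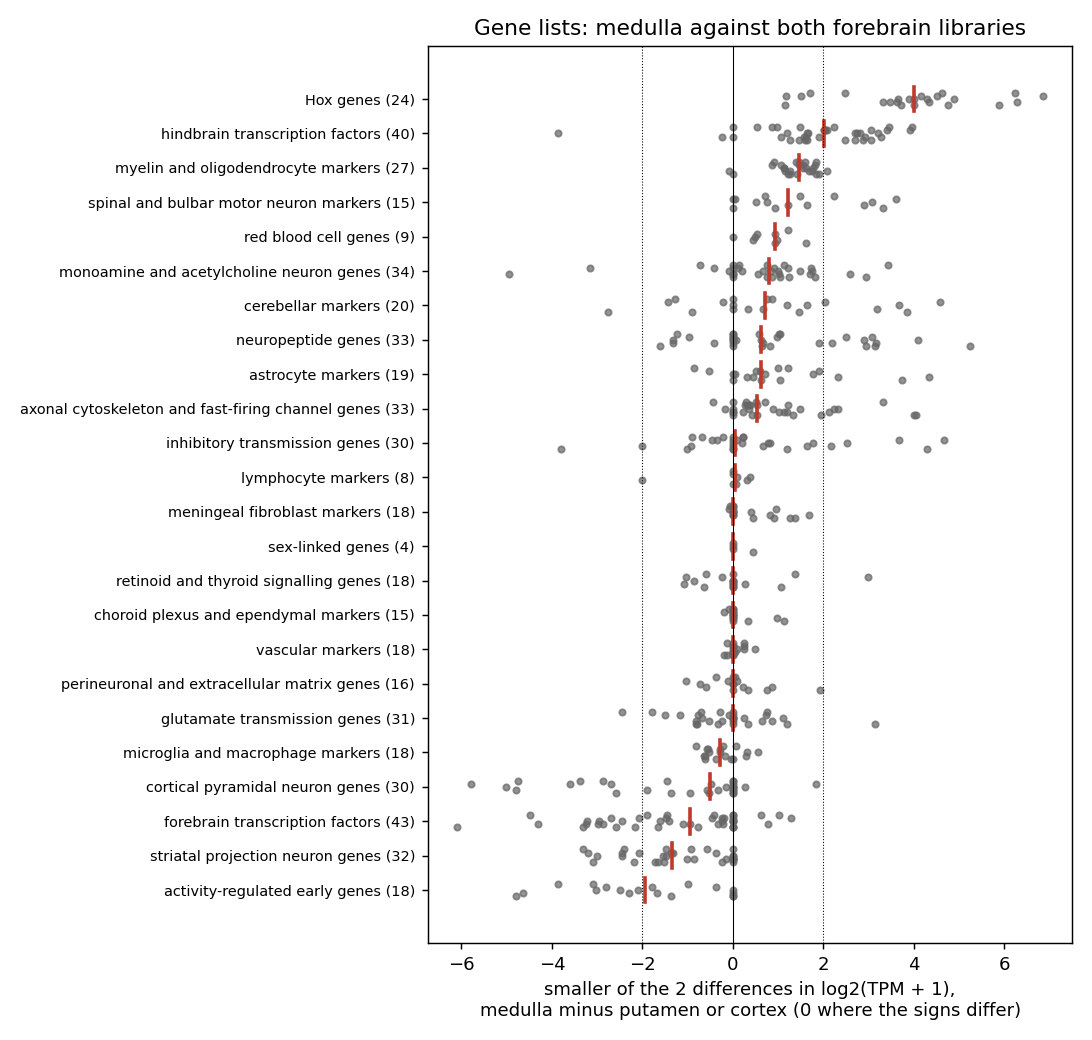
Smaller of the 2 differences in log2(TPM + 1) for each measured gene (points) and the median (red bar) of each of the 24 lists, with the number measured in brackets; 0 stands for a gene that lies between or level with the forebrain libraries, and dotted lines mark differences of 2. The Hox list, whose measured genes all reached 1 TPM in medulla, has the highest median, 3.99, and the activity-regulated list the lowest, -1.94.

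The lower genes were led by those of dendrites and excitatory synapses. Ddn, dendrin, whose RNA lies in forebrain dendrites, had 5.78 TPM in medulla, 1444.10 TPM in putamen and 789.79 TPM in cortex, a difference of -7.74 from putamen and -6.87 from cortex. Nrgn, neurogranin, a calmodulin-binding protein of spines, had 96.17 TPM in medulla, 3143 TPM in putamen and 5013 TPM in cortex. Camk2a, a kinase of synaptic plasticity, had 98.82 TPM in medulla, 1202 TPM in putamen and 2453 TPM in cortex. Itpka, Icam5 and Ptk2b, an inositol kinase, a dendritic adhesion protein and a tyrosine kinase, had 9.09, 6.06 and 6.27 TPM in medulla, against at least 158.69 TPM in either forebrain library.

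Further synaptic genes past the rule included scaffolds and their partners, named after their values were seen. Shank3, a scaffold protein, had 27.61 TPM in medulla, 250.64 TPM in putamen and 140.01 TPM in cortex. Dlgap3, a partner of Shank proteins, had 71.14 TPM in medulla, 572.87 TPM in putamen and 346.06 TPM in cortex. Dlgap2, Baiap2, Synpo, Lrrc7 and Akap5 were also lower. Of the 151 lower genes, 108 stood in none of the lists.

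Ion channels and signalling genes stood among the 15 largest differences. Kcnj4, an inward rectifier potassium channel, had 1.31 TPM in medulla, 238.88 TPM in putamen and 154.17 TPM in cortex. Kcnh3, a voltage-gated potassium channel of the forebrain, had 1.53 TPM in medulla, 137.84 TPM in putamen and 152.68 TPM in cortex. Rin1 and Rgs14, regulators of Ras and G-protein signalling, had 0.89 and 1.02 TPM in medulla, against 71.76 and 86.07 TPM in putamen and 57.15 and 44.09 TPM in cortex. Among other potassium channel genes Kcnv1, Kcnh4, Kcnf1 and Kcnq5 were lower past the rule, while Kcnh2 and Kcnj14 were higher.

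Striatal and cortical lists followed the region that defines them. Of 32 striatal projection neuron genes 24 were below both forebrain libraries, 9 passed as lower and none as higher, with a median difference of -1.35; the median was -4.23 against putamen and -1.35 against cortex. Of 30 cortical pyramidal neuron genes 18 were below both and 9 passed as lower, with medians of -1.16 against putamen and -2.99 against cortex. Adora2a, the adenosine receptor of striatal output neurons, had 1.62 TPM in medulla, 492.48 TPM in putamen and 19.92 TPM in cortex. Ngb, neuroglobin, was on the other side of the cortical list, with 16.47 TPM in medulla, 3.88 TPM in putamen and 3.74 TPM in cortex, and did not pass.

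Activity-regulated early genes had the lowest median of the lists, -1.94. Of 18 genes 14 were below both forebrain libraries, 9 passed as lower and none was above both. Egr3 had 4.35 TPM in medulla, 146.91 TPM in putamen and 236.68 TPM in cortex, and Egr4 had 1.81 TPM in medulla, 92.76 TPM in putamen and 68.74 TPM in cortex. Both encode zinc-finger factors induced by synaptic activity. Arc, a plasticity gene of dendrites, had 21.26 TPM in medulla, 124.12 TPM in putamen and 563.71 TPM in cortex. Nr4a1, a nuclear receptor, had 13.64 TPM in medulla, 124.52 TPM in putamen and 135.05 TPM in cortex. Egr1, Egr2, Fosb, Junb and Homer1 were the remaining ones past the rule.

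The list did not move as a block. Fos, the best known of these genes, had 25.93 TPM in medulla, 21.64 TPM in putamen and 47.72 TPM in cortex and so lay between the forebrain levels. Ier2 and Btg2 also lay between them, at 7.85 and 8.71 TPM in medulla. Bdnf, a growth factor gene of cortical neurons, had 7.53 TPM in medulla, 3.19 TPM in putamen and 37.79 TPM in cortex. Time of day and the handling of the tissue were not given in the labels.

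The edge of the rule was gradual. Zic1, Lhfpl5 and Itih3 were the last 3 genes inside it on the higher side, at differences of 2.04, 2.03 and 2.02, and Emilin2 and Susd2 were among the first outside, both at 1.99. On the lower side Gabra4 and Cd4 lay just inside at -2.02 and -2.01, and Rasl11b and Rbm24 just outside at -1.996 and -1.98. For Itih3 the counting interval of the fold over cortex was 3.94 to 4.36, which spans the threshold. Exons of 7 of the 134 higher and 8 of the 151 lower genes overlapped another protein-coding gene of the files; the strand of the reads was not stated, so reads of such pairs cannot be told apart.

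The levels of the 2 forebrain libraries entered the rule, so the distance between them at genes past it is a description and not a result. Of the 134 higher genes 111 had putamen and cortex within 1 on the log2 scale, and 109 of the 151 lower genes, against 12653 of the 14697 measured. Among the higher genes 101 of 134 had a higher level in putamen than in cortex, against 7972 of all measured. The Y-linked genes Ddx3y, Eif2s3y, Kdm5d and Uty were present in medulla and putamen and at most 0.09 TPM in cortex. The cortex library thus differed in Y-linked RNA as well as in region. Against cortex, region cannot be told apart from sex or animal. None of the 4 genes could pass, as medulla and putamen both carried them.

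Levels outside the brain were compared over the 19 other libraries. Of the 134 higher genes 97, or 72.4%, reached 1 TPM in at least 1 of them, as did 111 of the 151 lower genes, or 73.5%, and 89.4% of all measured genes. Just 7 of the higher and 25 of the lower genes, 5.22% and 16.6%, reached 1 TPM in every other library, against 58.1% of all measured genes. Below 1 TPM in all 19 were 37 of the higher genes, among them Slc6a5, Glra1, Calb2 and Gfap. Gfap was at most 0.24 TPM in any of them, against 2139 TPM in medulla.

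There were 21 of the 134 higher genes with a higher level in some library outside the brain than in medulla. Cd83, known as an activation marker of B cells and dendritic cells, had 86.67 TPM in medulla and 1408 TPM in B cells activated with aCD40 and IL4. Sparc had 1495 TPM in medulla and 1648 TPM in back skin. S100a9, a calcium-binding protein of myeloid cells, had 20.60 TPM in medulla and 930 TPM in basophils. Of the 97 higher genes that reached 1 TPM outside the brain, 47 were highest there in back skin, as were 36 of the 111 such lower genes. Back skin was the only whole tissue among the 19 libraries. No count over all measured genes is given beside the 47 or the 21, so neither is a result about the higher genes.

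Hox genes were not restricted to the medulla. Hoxb8 had 9.11 TPM in back skin and at most 0.01 TPM in the other 18 libraries outside the brain. Hoxb4, by contrast, was at 1.16 TPM or more in all 19, up to 11.89 TPM in Tfr T cells, against 29.11 TPM in medulla. Hoxa5 reached 9.61 TPM in back skin and 4.67 TPM in the CH12 lymphoma line, against 126.06 TPM in medulla.

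**Figure D5:**
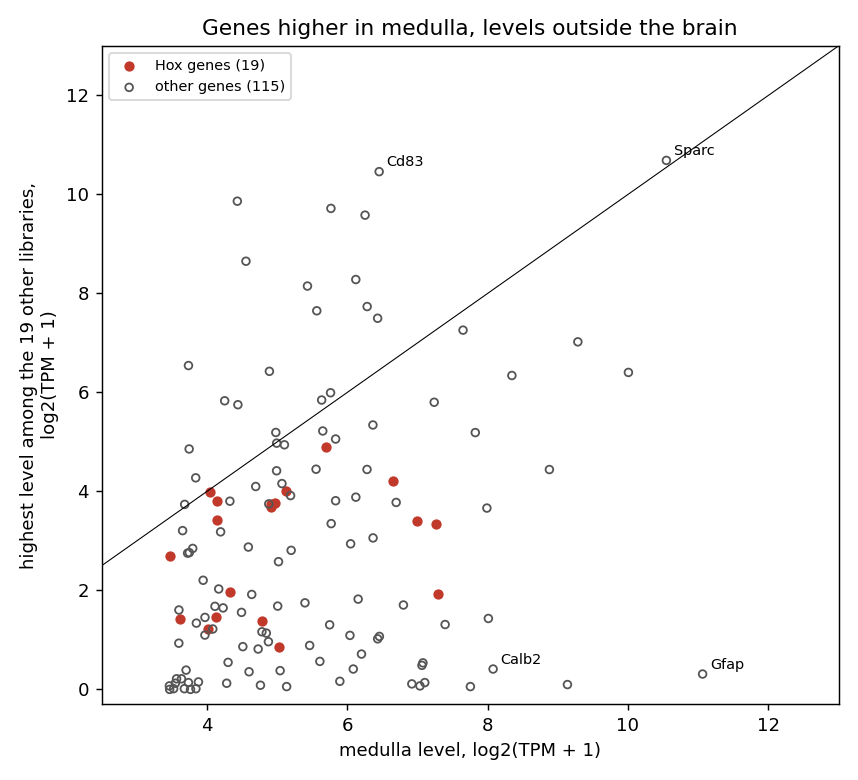
Level in medulla (horizontal axis) against the highest level among the 19 libraries outside the brain (vertical axis), both as log2(TPM + 1), for the 134 genes higher in medulla; filled points are the 19 Hox genes and the line marks equal levels. Of the 134 genes, 21 lie above the line, Cd83 among them, and Gfap and Calb2 lie near 0 on the vertical axis.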

How the data were processed

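Poly(A) RNA of mouse tissues and cells was sequenced for 50 cycles, per the labels' protocols. Each deposited file holds 3 values per gene. The expected count is the authors' estimate of reads, without normalization. TPM is the authors' level per transcript length, with the same sum in every library. FPKM is the authors' level per kilobase and depth, and serves here only as an alternative. The submitters' processing notes name the tools bedtools, RSEM, STAR and CASAVA 1.8.2 and the build mm10; order and settings are not given in the sources used here.

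Of 24911 genes per file the 4237 that are not protein-coding had no reads in any library and were not used. Levels were compared as log2(TPM + 1). The rule asked for a difference of at least 2 of the same sign from putamen and from cortex and 10 TPM or more on the higher side; a gene was measured at 1 TPM or more in any brain library. The smaller of the 2 differences is given, and 0 where the signs differ. Genes were named when they stood in one of 24 lists, among the 15 largest differences of a direction without a name-only gene model, or among the 3 nearest to the threshold on each side; others were chosen after their values were seen. Some genes that the rule names are not reported here. The members and lists were chosen with earlier results of these data known. 2 list genes, Trac and Xist, had no protein-coding entry. The rule was run on simulated data with known folds. These held counting noise only, with no spread between animals, and no gene at low levels was changed. Counts were rounded for TMM and RLE scaling with edgeR 4.0.16 in R 4.3.3; the rest used Python 3.11.15 with pandas 2.3.3 and scipy 1.17.1. Groups came from the labels. The alternatives were another pseudocount, TPM minimum, difference, unit, scaling, or a single forebrain library.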

Additional observations from a re-analysis of the deposited data

How the results depend on the processing

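The count of higher and of lower genes depended most on the size asked for and on which library stood for the forebrain. A difference of at least 1 gave 549 higher and 510 lower genes, and one of at least 3 gave 62 and 55, by construction. Against putamen alone there were 254 higher and 400 lower genes, and against sensorimotor cortex alone 220 and 314. With FPKM in place of TPM there were 81 higher and 113 lower genes; FPKM summed to 0.424 of TPM in medulla, 0.417 in putamen and 0.394 in cortex, so both the minimum of 10 and the pseudocount weigh more, and these effects were not separated. FPKM also lowered the Hox genes past the rule to 11 and the other hindbrain factors to 1, whereas a TPM minimum of 1 or none gave 21 hindbrain factors in place of 11. TMM-scaled CPM gave 131 higher and 166 lower genes, and 113 and 146 of these were shared with the TPM calls. Of the neuropeptide genes 4 in place of 8 then passed. CPM, unlike TPM, carries no correction for length, so this setting changed the unit as well as the scaling. The TMM factors were 1.05 in medulla, 1.02 in putamen and 0.932 in cortex. The minimum of 10 and the pseudocount thus weigh differently on short genes, and these effects were not separated from the scaling. Both the TMM and the RLE setting moved the median of all genes by under 0.1 on the log2 scale. A pseudocount of 0.1 gave 157 and 182, no TPM minimum 173 and 155, RLE-scaled CPM 130 and 167, and TPM without the highest genes 142 and 150. None of the 112 genes recomputed changed sign, except that Nrgn, among the highest genes, has no value where those were left out. All 112 had passed the rule, so another minimum, size, pseudocount or single forebrain library could not reverse a sign. Only FPKM, the TMM and RLE scalings and TPM without the highest genes could have done so. No paired analysis was possible because each region had 1 library. Spread between animals is unknown, and counting error limits only genes with few reads, such as Hox genes in the forebrain and Prlh.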

Other observations

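Cd4 was the only gene of the lymphocyte list past the rule. It had 0.15 TPM in medulla, 76.99 TPM in putamen and 3.64 TPM in cortex, and 1224 TPM in Tfh cells. The T-cell genes Cd3e, Cd3d and Cd8a were at most 0.32 TPM in any brain library. The source of the putamen reads was not tested.

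The ependymal markers Ccdc153 and Foxj1 were highest in putamen and not in medulla. Of the 15 choroid plexus and ependymal genes measured, 3 were above both forebrain libraries, 2 below both and 10 between or level with them. Ccdc153, a gene of motile cilia, had 1.75 TPM in medulla, 29.33 TPM in putamen and 0.93 TPM in cortex, and Foxj1, the main factor of such cilia, had 22.18 TPM in medulla, 28.11 TPM in putamen and 4.14 TPM in cortex. Ttr, a transport protein of the choroid plexus, had 21.51 TPM in medulla, 16.47 TPM in putamen and 16.78 TPM in cortex.

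Several higher genes of the medulla act outside neurons. Gpx3, a secreted peroxidase, had 75.28 TPM in medulla, 7.08 TPM in putamen and 6.41 TPM in cortex. Klk6, a protease of oligodendrocytes, had 149.98 TPM in medulla, 22.25 TPM in putamen and 8.07 TPM in cortex. Myoc, a secreted protein known from the eye, had 24.90 TPM in medulla, 1.29 TPM in putamen and 4.53 TPM in cortex. These 3 were chosen after their values were seen.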
